A study of Mus with 4 samples.

Results

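The genes described here are chaperones, folding enzymes and regulators of the unfolded protein response of the endoplasmic reticulum (ER), and chaperones of the heat shock response. They were read in 4 mouse tumors, or pools of tumors, of the Renca line. A list of 32 genes was matched by gene symbol to the probe sets of a whole-transcript array, of which 28 were found among 19505 named genes, 16 of 17 in the ER arm and 12 of 15 in the heat shock arm. Pdia4 of the ER arm and Dnaja1, Hspa8 and Hsf1 of the heat shock arm carried no probe set under their symbol and were not analysed here. The genes were listed by name and not by a filter on values, but earlier results of these data were known when they were chosen.

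Renca is a mouse renal adenocarcinoma cell line, and the cells stably expressed a short hairpin RNA against Nrf3 (shNrf3, gene Nfe2l3, a transcription factor of the cap'n'collar family) or a control hairpin (shCtrl). They were injected under the skin of the flanks of male BALB/cCrSlc mice that had been fed a high-fat diet (HFD, HFD-60) or normal chow (NC, CE-2) for 17 weeks after purchase at an age of 4 to 6 weeks. Tumors were removed after 2 weeks, and their total RNA was hybridised to 1 array for each of 4 groups: shNrf3-HFD, shCtrl-HFD, shNrf3-NC and shCtrl-NC. The study asked how knockdown of Nrf3 and the diet of the host bear on gene expression in the tumor. The hairpins were in the injected cells, so host cells in a tumor carry neither hairpin, and both the tumor line and the host strain are common to all 4 groups. The labels do not say whether the cells were clones, or whether an array holds 1 tumor or a pool.

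Proteins that enter the ER are folded there by chaperones such as BiP and GRP94 and by disulfide isomerases. When unfolded protein accumulates, the membrane sensors IRE1, ATF6 and PERK raise the transcription of these helpers and of genes that return misfolded protein to the cytosol for degradation. In the cytosol and nucleus a parallel program under heat shock factor 1 raises chaperones of the HSP70, HSP110, HSP40 and small HSP families, and tumor cells are known to use both programs.

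Values are log2 intensities after robust multi-array averaging (RMA), so a difference of 1 is a factor of 2, and levels of different genes are not set against each other. With 1 array per group no single difference has a replicate check. A difference is counted when it reached 1.5-fold, and the share of all 10021 genes past a filter on level that did so stands beside it. The 4 differences share arrays in pairs, so they are not independent of each other.

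Nfe2l3 itself gave 6.05 for the array labelled shNrf3-HFD and 5.77 for the one labelled shCtrl-HFD, a difference of 0.28. It read 5.56 on shNrf3-NC and 6.22 on shCtrl-NC, a difference of -0.66. The reading was thus lower with the Nrf3 hairpin on chow and higher with it on the high-fat diet, where it goes against the label, and all 4 readings were dim, under the level that 95% of negative control probe sets stay below (8.97 to 9.35). Every direction given for the HFD arrays below rests on their labels. Among epithelial markers, Krt8 read 14.79, 15.08, 14.32 and 14.42 on shNrf3-HFD, shCtrl-HFD, shNrf3-NC and shCtrl-NC. Epcam (-1.56), Cldn4 (-0.91), Krt18 (-0.71) and Cdh1 (-0.64) were 1.5-fold or more lower on shNrf3-NC than on shCtrl-NC, where 13.5% of all genes were. Krt19 went the other way on chow at 0.53, short of 1.5-fold. On the high-fat diet Krt18, Krt19, Cdh1 and Cldn4 were lower by as much on shNrf3-HFD than on shCtrl-HFD, where 20.6% of all genes were. The part of these epithelial differences in the results was not tested. The renal tubule markers Pax8, Pax2, Lhx1 and Cdh16 lay below the median of the negative controls on all 4 arrays.

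All 28 measured genes passed the filter on level, and none read below the negative control median on any array. Bag3, Sdf2l1 and Hspb1 stayed above that median but under the 95th percentile of the controls on all 4 arrays, Creld2 on 3 and Ern1 on 2, so differences of these genes are those of dim probe sets. Hspa5 stood at the other end of the scale, 0.76 to 1.42 below the highest value in the whole table (19.93).

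On chow, genes of both arms read higher with the Nrf3 hairpin. Of the 28 genes, 18 were 1.5-fold or more higher on shNrf3-NC than on shCtrl-NC, where 26.7% of all genes were, and 0 were lower by as much, where 13.5% of all genes were. The ER arm gave 9 of 16 and the heat shock arm 9 of 12. The median difference was 0.84 over the ER arm and 0.88 over the heat shock arm, against 0.14 over all genes. On the high-fat diet 1 gene was 1.5-fold or more higher on shNrf3-HFD than on shCtrl-HFD, where 9.01% of all genes were, and 7 were lower, where 20.6% were. The median there was -0.04 over the ER arm and -0.49 over the heat shock arm, against -0.14 over all genes.

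**Figure D1:**
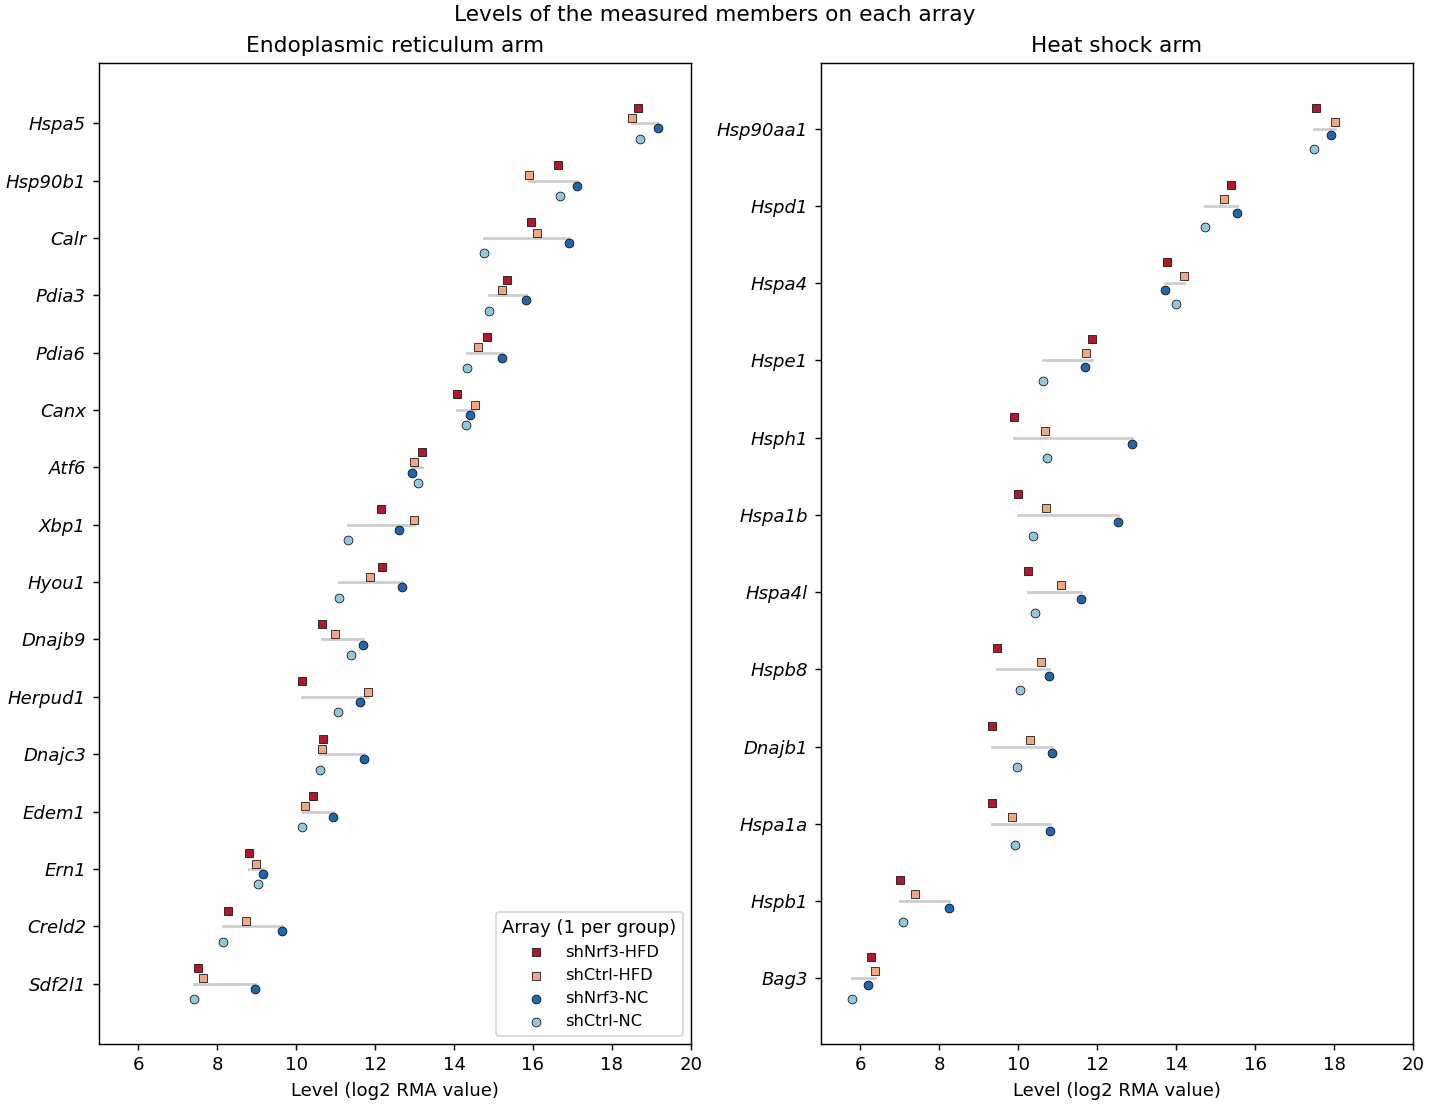
Log2 RMA level of each measured gene (1 row per gene, a panel per arm; horizontal axis, log2 RMA value) on the 4 arrays, 1 point per array, no error bars since each group has 1 array. The shNrf3-NC point is the rightmost for 20 of the 28 genes, and the 4 points of Hsph1 run between 9.89 and 12.88.

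The folding factors of the ER lumen come first. Hspa5, which encodes BiP, the main HSP70 of the ER, read 18.66 on shNrf3-HFD, 18.51 on shCtrl-HFD, 19.17 on shNrf3-NC and 18.70 on shCtrl-NC. The shNrf3-NC reading was the highest and the other 3 lay within 0.20 of each other, with construct differences of 0.15 on the high-fat diet and 0.47 on chow, both short of 1.5-fold. Hsp90b1, which encodes the ER HSP90 paralogue GRP94, read 16.62 on shNrf3-HFD, 15.90 on shCtrl-HFD, 17.11 on shNrf3-NC and 16.68 on shCtrl-NC. Here shCtrl-HFD stood lowest, the construct difference was 0.72 on the high-fat diet and 0.43 on chow, and the HFD minus NC difference in shCtrl tumors was -0.78.

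Calr, which encodes calreticulin, a lectin chaperone of new glycoproteins, read 15.95 on shNrf3-HFD, 16.10 on shCtrl-HFD, 16.92 on shNrf3-NC and 14.77 on shCtrl-NC. Its construct difference was -0.16 on the high-fat diet and 2.16 on chow, where the shNrf3-NC reading was 4.46-fold that of shCtrl-NC. Both HFD arrays lay between the chow arrays, so the HFD minus NC difference was 1.34 in shCtrl tumors and -0.98 in shNrf3 tumors. Hyou1, which encodes the ER HSP110 protein that exchanges nucleotide on BiP, read 12.19 on shNrf3-HFD, 11.89 on shCtrl-HFD, 12.69 on shNrf3-NC and 11.08 on shCtrl-NC. It was higher with the Nrf3 hairpin in both diets, by 0.30 on the high-fat diet and 1.60 on chow. The disulfide isomerases Pdia3 and Pdia6 were 0.95 and 0.90 higher on shNrf3-NC than on shCtrl-NC. Canx, the membrane-bound partner of calreticulin in glycoprotein folding, differed by 0.09 between the same arrays. Over these 7 folding factors the construct difference ran from -0.47 to 0.72 on the high-fat diet and from 0.09 to 2.16 on chow.

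The 4 ER cochaperones and luminal partners, Sdf2l1, Creld2, Dnajb9 and Dnajc3, were each 1.5-fold or more lower on shNrf3-HFD than on shNrf3-NC, with differences from -1.44 to -1.02. Sdf2l1, which forms a complex with an ER HSP40 that keeps BiP clients soluble, read 7.51 on shNrf3-HFD, 7.64 on shCtrl-HFD, 8.95 on shNrf3-NC and 7.41 on shCtrl-NC. Creld2, an ER-stress-induced protein of the ER lumen, read 8.29 on shNrf3-HFD, 8.72 on shCtrl-HFD, 9.65 on shNrf3-NC and 8.14 on shCtrl-NC. In both genes shNrf3-NC stood apart, 1.31 above the next array for Sdf2l1 and 0.92 above it for Creld2, and the construct difference on chow was 1.54 for Sdf2l1 and 1.51 for Creld2. Dnajc3, an HSP40 of the ER, was 1.03 above its next array on shNrf3-NC, while its other 3 readings lay within 0.06 of each other. Dnajb9, an HSP40 that binds IRE1 and BiP, was high on both chow arrays, with a construct difference of 0.30 there.

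Herpud1 encodes a membrane protein of the complex that exports misfolded proteins from the ER. It read 10.15 on shNrf3-HFD, 11.82 on shCtrl-HFD, 11.63 on shNrf3-NC and 11.06 on shCtrl-NC. The shNrf3-HFD reading was the low one, 3.19 times lower than on shCtrl-HFD (a difference of -1.67), and the HFD minus NC difference in shNrf3 tumors was -1.48. Its construct difference on chow was 0.57, just short of 1.5-fold. Edem1, which directs misfolded glycoproteins to degradation, was 0.78 higher on shNrf3-NC than on shCtrl-NC and 0.21 higher on shNrf3-HFD than on shCtrl-HFD.

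The sensors and the transcription factor downstream of IRE1 were read separately. Atf6, the sensor that is cleaved in the Golgi to release a transcription factor, read 13.19 on shNrf3-HFD, 12.98 on shCtrl-HFD, 12.93 on shNrf3-NC and 13.10 on shCtrl-NC. Ern1, which encodes the kinase and endonuclease IRE1, read 8.82 on shNrf3-HFD, 8.99 on shCtrl-HFD, 9.17 on shNrf3-NC and 9.04 on shCtrl-NC. Neither sensor reached 1.5-fold in any of the 4 differences. Xbp1, whose messenger RNA is spliced by IRE1 to make an active transcription factor, read 12.15 on shNrf3-HFD, 12.98 on shCtrl-HFD, 12.60 on shNrf3-NC and 11.33 on shCtrl-NC. Its construct difference was -0.83 on the high-fat diet and 1.27 on chow, and the lowest array was shCtrl-NC, 1.65 below shCtrl-HFD. The array reading is of the gene as a whole and does not separate spliced from unspliced Xbp1.

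In the heat shock arm, Hsph1 and Hspa1b had the largest construct differences on chow and the largest diet differences in shNrf3 tumors. Hsph1, which encodes the cytosolic HSP110 that exchanges nucleotide on HSP70, read 9.89 on shNrf3-HFD, 10.69 on shCtrl-HFD, 12.88 on shNrf3-NC and 10.73 on shCtrl-NC. The shNrf3-NC reading stood 2.15 above the next highest, and the remaining 3 lay within 0.84 of each other. Its construct difference was -0.80 on the high-fat diet and 2.15 on chow, and in shNrf3 tumors the reading was 7.97 times lower on the high-fat diet than on chow (a difference of -2.99).

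Hspa1a and Hspa1b encode the stress-inducible cytosolic HSP70 and are near-identical neighbours on chromosome 17, with 0 protein-coding genes between them, so their probe sets may share signal and each value is uncertain as a reading of 1 gene. Hspa1a read 9.34 on shNrf3-HFD, 9.85 on shCtrl-HFD, 10.81 on shNrf3-NC and 9.92 on shCtrl-NC. Hspa1b read 10.004 on shNrf3-HFD, 10.70 on shCtrl-HFD, 12.53 on shNrf3-NC and 10.39 on shCtrl-NC. Both were highest on shNrf3-NC and lowest on shNrf3-HFD, and the chow construct difference was 0.89 for Hspa1a and 2.14, or 4.40-fold, for Hspa1b. In shNrf3 tumors the HFD minus NC difference was -1.47 for Hspa1a and -2.52 for Hspa1b. Hspa4l, an HSP110 relative, read 10.25 on shNrf3-HFD, 11.08 on shCtrl-HFD, 11.60 on shNrf3-NC and 10.43 on shCtrl-NC. It too was highest on shNrf3-NC and lowest on shNrf3-HFD. Hspa4, another HSP110 relative, had construct differences of -0.43 on the high-fat diet and -0.27 on chow, both short of 1.5-fold.

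Dnajb1, the HSP40 that feeds clients to inducible HSP70, read 9.35 on shNrf3-HFD, 10.31 on shCtrl-HFD, 10.85 on shNrf3-NC and 9.98 on shCtrl-NC. Hspb8, a small HSP that works with Bag3 in chaperone-assisted autophagy, read 9.46 on shNrf3-HFD, 10.59 on shCtrl-HFD, 10.79 on shNrf3-NC and 10.05 on shCtrl-NC. Both genes were lowest on shNrf3-HFD, where Hspb8 was 2.19 times lower than on shCtrl-HFD (a difference of -1.13) and Dnajb1 differed by -0.96. Hspb1, the small HSP also called HSP25 in mouse, read 7.01 on shNrf3-HFD, 7.40 on shCtrl-HFD, 8.25 on shNrf3-NC and 7.08 on shCtrl-NC. Bag3, the cochaperone that joins HSP70 to small HSPs, read 6.29 on shNrf3-HFD, 6.38 on shCtrl-HFD, 6.21 on shNrf3-NC and 5.79 on shCtrl-NC. Hspb1 was high on shNrf3-NC alone, whereas Bag3 was low on shCtrl-NC and near level on the other 3 arrays.

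Hspe1 and Hspd1, which encode the mitochondrial chaperonin HSP10 and HSP60, lie side by side on chromosome 1 with 0 protein-coding genes between them. Hspe1 read 11.88 on shNrf3-HFD, 11.72 on shCtrl-HFD, 11.68 on shNrf3-NC and 10.62 on shCtrl-NC. The low array was shCtrl-NC for Hspe1 and for Hspd1, and both genes were 0.17 higher on shNrf3-HFD than on shCtrl-HFD. On chow their construct differences were 1.06 for Hspe1 and 0.80 for Hspd1. Hsp90aa1, the inducible cytosolic HSP90, differed by -0.48 between constructs on the high-fat diet and by 0.43 on chow.

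**Figure D2:**
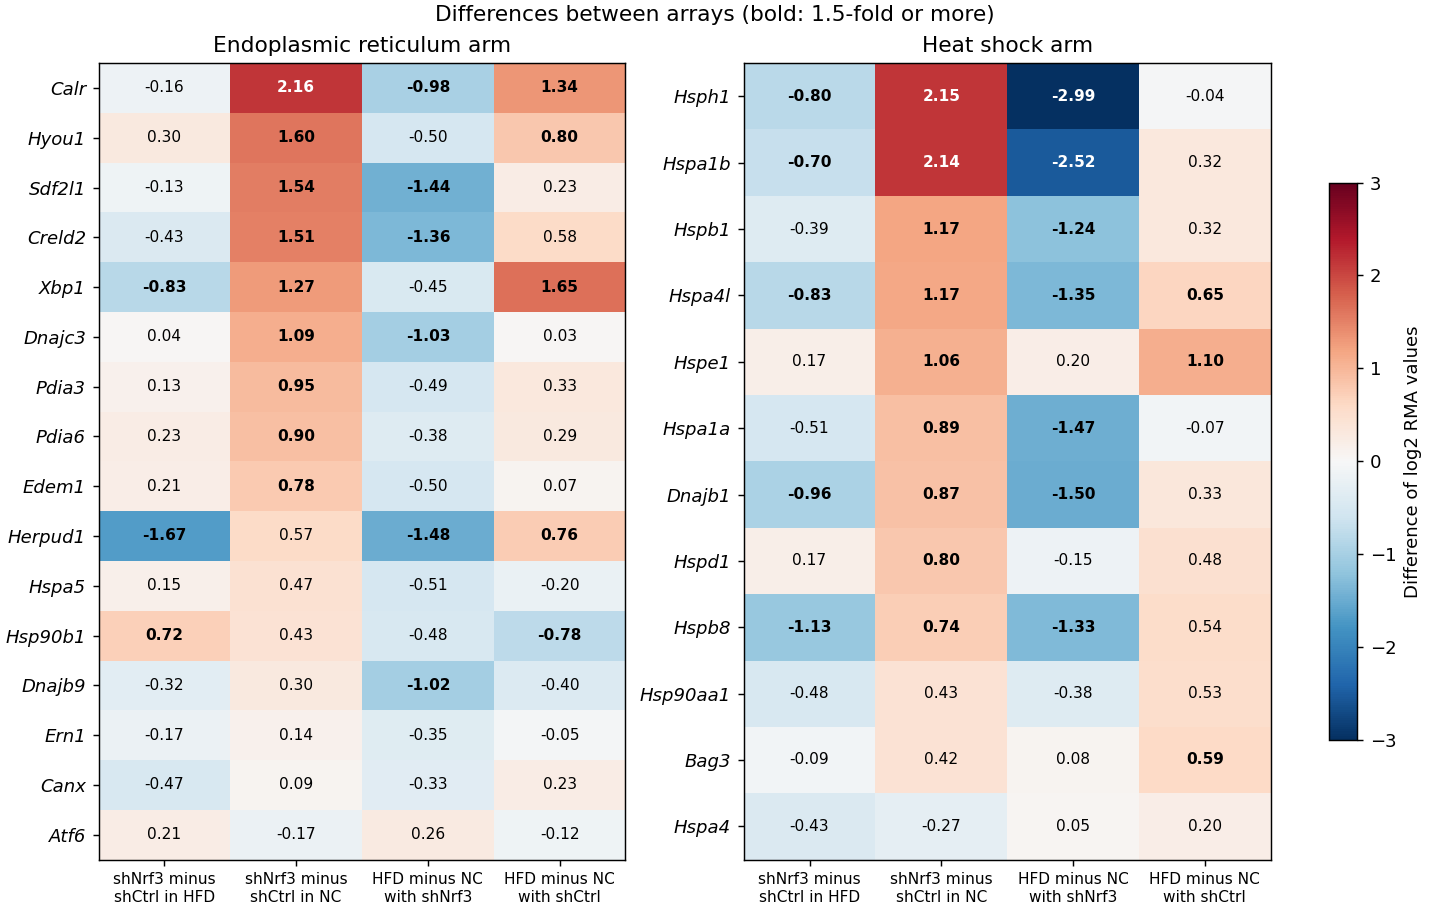
Heat map of the difference in log2 level between constructs (shNrf3 minus shCtrl, in each diet) and between diets (HFD minus NC, in each construct), 1 row per measured gene, with red for positive and blue for negative differences and bold figures at 1.5-fold or more. No negative figure is bold in the chow construct column, and 13 are bold in the diet column of shNrf3 tumors.

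The construct difference was next compared between the diets. The difference on the high-fat diet minus that on chow had a median of -1.48 over the heat shock arm and -0.74 over the ER arm, against -0.30 over all genes. After cyclic loess these medians were -1.19, -0.30 and -0.03, and after centring -1.06, -0.32 and 0.12, in the same order. A gene that was 1.5-fold or more higher on shNrf3-NC and 1.5-fold or more lower on shNrf3-HFD, each against its shCtrl array, was found 5 times among 12 in the heat shock arm (Dnajb1, Hspa1b, Hspa4l, Hspb8 and Hsph1) and 1 time among 16 in the ER arm (Xbp1). Among all genes 5.01% had this pattern. After cyclic loess and after centring the heat shock count was 3 of 12 (Dnajb1, Hspa4l and Hsph1), without Hspa1b and Hspb8, and Xbp1 kept the pattern, which 3.02% of all genes had after loess and 2.0% after centring. The commoner pattern of the ER arm, 8 of 16 genes, was a higher reading on chow with less than 1.5-fold either way on the high-fat diet, which 4 of 12 heat shock genes and 18.7% of all genes had. No gene of either arm was 1.5-fold or more higher with the Nrf3 hairpin in both diets. Among all genes 3.03% were, so small a share that this absence does not set the arms apart.

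**Figure D3:**
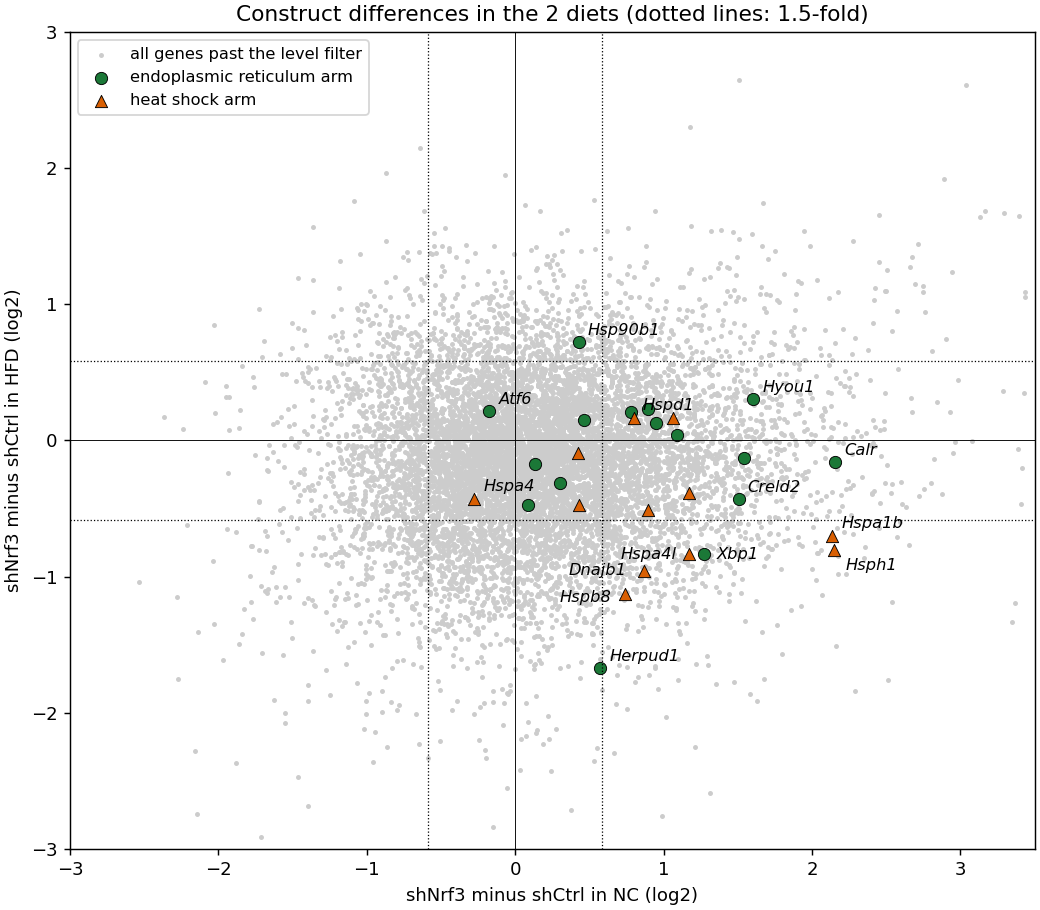
Construct difference (shNrf3 minus shCtrl, log2) on the high-fat diet against that on chow, 1 point per gene, with the genes of both arms over all genes past the level filter and dotted lines at 1.5-fold. Hsph1, Hspa1b and Xbp1 lie where the chow difference is positive and the HFD difference negative, and Calr lies at 2.16 on chow and -0.16 on the high-fat diet. The plot leaves out 29 genes outside its range and 11 without a difference in both diets.

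Diet was compared within each construct. In shNrf3 tumors 0 of the 28 genes were 1.5-fold or more higher on the high-fat diet, where 8.78% of all genes were, and 13 were lower, where 14.3% were. These were 6 of 16 in the ER arm (Calr, Creld2, Dnajb9, Dnajc3, Herpud1 and Sdf2l1) and 7 of 12 in the heat shock arm (Dnajb1, Hspa1a, Hspa1b, Hspa4l, Hspb1, Hspb8 and Hsph1). The median difference was -0.50 over the ER arm and -1.28 over the heat shock arm, against -0.03 over all genes. In shCtrl tumors 7 genes were higher on the high-fat diet, where 31.1% of all genes were, and 1 was lower, where 10.6% were. The 7 were Calr, Herpud1, Hyou1 and Xbp1 of the ER arm and Bag3, Hspa4l and Hspe1 of the heat shock arm, the lower one was Hsp90b1, and 7 of 28 is no larger a share than that of all genes. The median in shCtrl tumors was 0.23 over the ER arm and 0.40 over the heat shock arm, against 0.26 over all genes.

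Much of this rests on single arrays. The shNrf3-NC array held the highest reading of 20 of the 28 genes, where it was the highest for 24.1% of all genes, and shCtrl-NC held it for 0 of the 28. The lowest reading lay on shCtrl-NC for 9 of 16 ER genes and 4 of 12 heat shock genes. On shNrf3-HFD it lay for 4 of 16 and 7 of 12. The shares of all genes lowest on these arrays, or highest on shCtrl-NC, were not counted. Those counts therefore do not set the 28 genes apart from all genes. The median level of all genes past the filter was itself lowest on shCtrl-NC (8.61), then on shNrf3-HFD (8.72), shNrf3-NC (8.82) and shCtrl-HFD (8.93). The shNrf3-NC array stood 1.5-fold or more above each of the other 3 arrays for 8 of the 28 genes (Calr, Creld2, Dnajc3, Sdf2l1, Hspa1a, Hspa1b, Hspb1 and Hsph1), as it did for 4.05% of all genes. Over the 4 arrays the range of a gene's readings had a median of 1.06 in the ER arm and 1.30 in the heat shock arm, against 0.85 over all genes. Without shNrf3-NC the median range was 0.50 in the ER arm and 0.67 in the heat shock arm, against 0.72 over all genes. That array was picked because it held most of these genes' highest readings, so leaving it out narrows their ranges by that choice. The same is not given for leaving out another array.

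The scale of the arrays moved some of these values. All genes together were shifted between arrays by 0.14 (construct on chow), -0.14 (construct on the high-fat diet), 0.26 (diet in shCtrl) and -0.03 (diet in shNrf3) in their median log2 difference. Counted from that median, 18 genes of the 28 were higher and 0 lower on chow, where 21.0% and 19.0% of all genes were. On the high-fat diet the construct count from the median was 1 higher and 6 lower, where 13.7% and 14.8% of all genes were. The diet count in shCtrl tumors became 3 higher and 2 lower, where 19.6% and 18.5% were, and in shNrf3 tumors it stayed at 0 higher and 13 lower, where 9.65% and 13.2% were. After centring each array on its median, the split over all genes was 19.0% higher and 21.8% lower for the construct on chow, 16.8% and 12.2% for the construct on the high-fat diet, and 17.4% and 20.7% for diet in shCtrl tumors. In shNrf3 tumors the centred split for diet was 12.7% and 10.8%. Cyclic loess between arrays gave 15 higher and 0 lower of the 28 for construct on chow, where 21.4% and 18.1% of all genes were, and 1 higher and 6 lower on the high-fat diet, where 13.1% and 15.1% were. For diet it gave 4 higher and 3 lower in shCtrl tumors, where 19.7% and 17.6% were, and 0 higher and 13 lower in shNrf3 tumors, where 9.36% and 13.4% were. Hspa1b was short of 1.5-fold between constructs on the high-fat diet after both rescalings, at -0.53 after loess and -0.49 after centring, as were Hspb8 on chow (0.55 and 0.53) and Hspd1 on chow after loess (0.47). Pdia6 after loess (0.577) and Edem1 after centring (0.576) were also just short on chow. In the diet comparison of shCtrl tumors Herpud1 (0.42 and 0.45), Hyou1 (0.43 and 0.49) and Hspa4l (0.31 and 0.34) were short of it after loess and after centring, and Bag3 after centring (0.27). No gene counted at 1.5-fold turned sign after loess or centring. The median of the ER arm did turn sign in the HFD construct comparison (0.12 after cyclic loess) and in the diet comparison of shCtrl tumors (-0.14 after cyclic loess).

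Construct and diet were also fitted together as additive terms over all genes with limma, where 4 arrays leave 1 residual degree of freedom, taken up by the interaction. It called 0 genes at an adjusted p under 0.05 for construct and 0 for diet, while 4.46% and 2.91% of all genes had an unadjusted p under 0.05, none of the 28 among them. The smallest adjusted p among the 28 genes was 0.961 for construct and 0.999 for diet. Hyou1 had the lowest unadjusted p for construct, with an averaged difference of 0.95 ± 0.46 (moderated SE, limma adjusted p = 0.961). Hsph1 had the lowest for diet, with an averaged difference of -1.52 ± 0.69 (moderated SE, limma adjusted p = 0.999). These averages join unlike values. For Hyou1 the construct difference was 0.30 on the high-fat diet and 1.60 on chow. For Hsph1 the diet difference was -0.04 in shCtrl tumors and -2.99 in shNrf3 tumors, so its average describes neither construct. A moderated SE borrows residual variance from all genes, so neither it nor the p rests on the gene's own 1 residual degree of freedom alone. With 1 array per group, variation among tumors treated alike could not be estimated, and these SE and p values do not measure it. After centring, which called 27 genes for construct and 11 for diet over all genes, none of the 28 was called.

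Genes of the same pathways outside the 32 were read for comparison. Of 34 other measured genes of ER folding and degradation, 14 (41.2%) were 1.5-fold or more higher and 0 lower on shNrf3-NC than on shCtrl-NC, where 26.7% and 13.5% of all genes were. The 34 include Derl3, which lay below the negative control median on all 4 arrays and had no difference, so 33 could be counted. Between the HFD arrays 1 (2.94%) was higher and 3 (8.82%) lower with the Nrf3 hairpin, both below the shares of all genes, 9.01% and 20.6%. Erp44, which retains client proteins in the early secretory pathway, had the largest chow difference, with 12.20 on shNrf3-HFD, 11.99 on shCtrl-HFD, 12.78 on shNrf3-NC and 10.10 on shCtrl-NC. Its low array was shCtrl-NC, unlike Sdf2l1 and Dnajc3, for which shNrf3-NC was the high one. Fkbp2, an ER prolyl isomerase, followed at 1.55, and the lowest on chow were Ssr3 and Wfs1, both at -0.40.

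Of 9 genes of the PERK branch with a difference, 1 was higher and 1 lower on chow, where 26.7% and 13.5% of all genes were, and 0 were higher or lower between constructs on the high-fat diet, where 9.01% and 20.6% were. Atf4, the transcription factor translated when PERK is active, read 11.65 on shNrf3-HFD, 11.96 on shCtrl-HFD, 12.05 on shNrf3-NC and 13.06 on shCtrl-NC. Its high array was shCtrl-NC, with a construct difference of -1.01 on chow. Cebpb, a stress-responsive transcription factor, was 0.61 higher on chow, and Ddit3, which encodes CHOP, was lower at -0.45. Ppp1r15a and Sesn2 lay below the negative control median on all 4 arrays.

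A list of 32 other measured genes, mostly cytosolic chaperones and cochaperones, also held the heat shock transcription factor Hsf2 and Serpinh1, a collagen chaperone of the ER. Of these, 13 (40.6%) were higher and 2 (6.25%) lower on shNrf3-NC than on shCtrl-NC, where 26.7% and 13.5% of all genes were. Between the HFD arrays 3 (9.38%) were higher with the Nrf3 hairpin, close to the 9.01% of all genes, and 4 (12.5%) lower, where 20.6% were. Cryab, the small HSP alpha B-crystallin, which is abundant in muscle, read 8.05 on shNrf3-HFD, 8.25 on shCtrl-HFD, 10.22 on shNrf3-NC and 6.80 on shCtrl-NC. Stip1, which links HSP70 to HSP90, was 1.64 higher on chow, and St13, an HSP70 cochaperone, and Cct4, a subunit of the chaperonin CCT, were lower at -0.83 and -0.66. Of 10 other mitochondrial chaperone and protease genes, 4 were higher and 0 lower on chow, where 26.7% and 13.5% of all genes were, led by Htra2 at 1.58 and Clpp at 1.14.

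**Figure D4:**
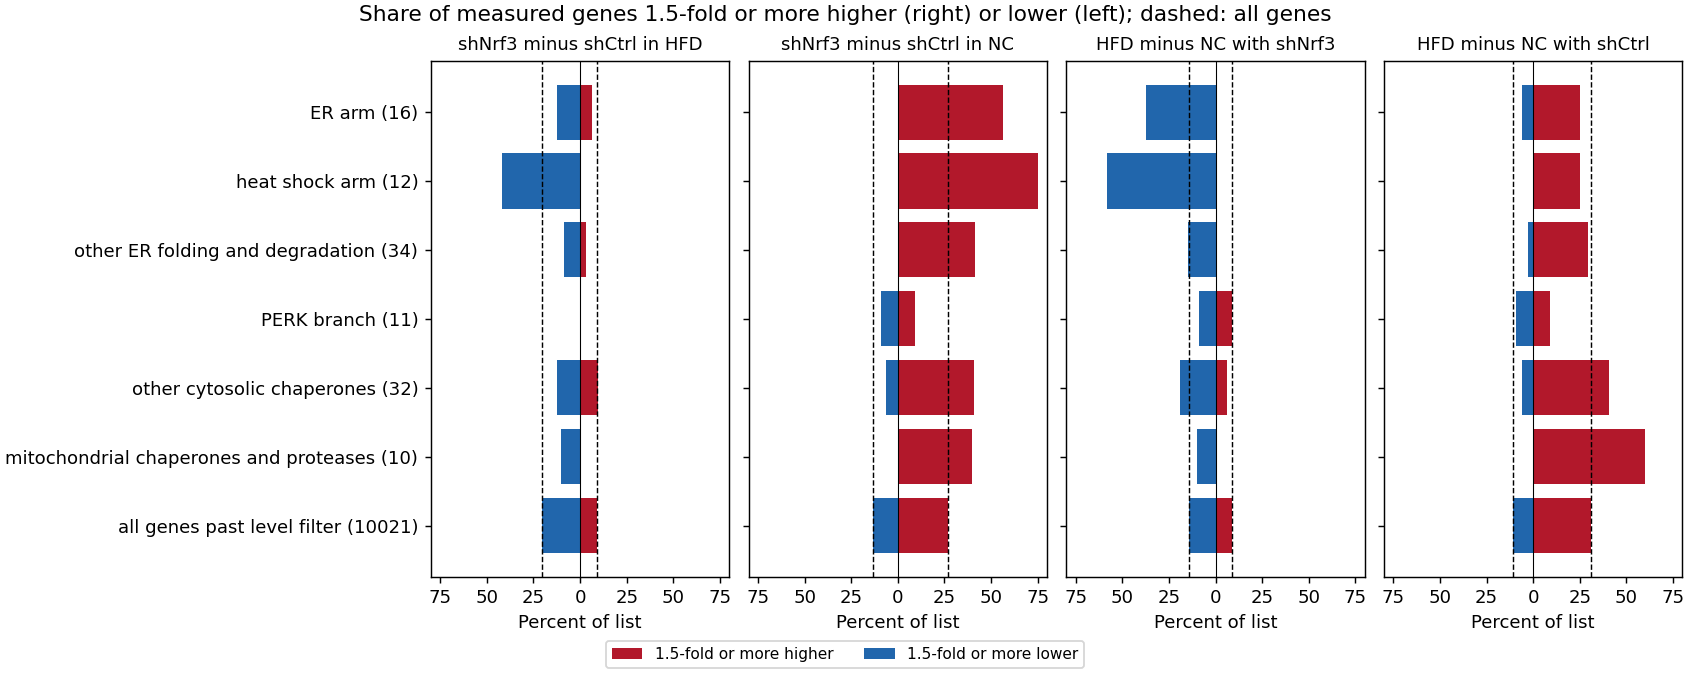
Share of the genes of each list (percent, horizontal axis) that were 1.5-fold or more higher or lower in each of the 4 comparisons, to the right of 0 for higher and to the left for lower, with dashed lines at the share of all genes past the level filter. Shares are of all measured genes of a list, so the 11 PERK branch genes include those without a difference. In the chow construct comparison 9 of 12 heat shock genes and 9 of 16 ER genes lie on the higher side, where all genes are at 26.7%.

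Markers of other cells also differed between these arrays. In whole tumors, fewer cells of a type and less RNA per cell cannot be told apart. Markers of skeletal muscle, which lies beneath the skin of the flank, had a mean level of 5.18 on shNrf3-HFD, 5.75 on shCtrl-HFD, 8.29 on shNrf3-NC and 5.65 on shCtrl-NC. On these arrays, in that order, 10, 7, 1 and 9 of the 15 lay below the negative control median. Only 8 of the 15 passed the level filter, and a difference with a reading set to that median is a bound. Marker counts here are at 1.5-fold. By as much, 26.7% of all genes were higher and 13.5% lower with the Nrf3 hairpin on chow. Between the HFD arrays 9.01% of all genes were higher and 20.6% lower. Of 14 muscle markers with a difference on chow, 12 were higher and 0 lower on shNrf3-NC than on shCtrl-NC. Of 9 muscle markers with a difference between the HFD arrays, 0 were higher and 4 lower with the Nrf3 hairpin. Markers of macrophages averaged 11.36 on shNrf3-HFD, 10.93 on shCtrl-HFD, 11.68 on shNrf3-NC and 10.28 on shCtrl-NC, and all 12 were higher on shNrf3-NC than on shCtrl-NC. Between the HFD arrays 6 of the 12 were higher and 1 lower with the Nrf3 hairpin. Those of adipocytes averaged 7.30 on shNrf3-HFD, 8.36 on shCtrl-HFD, 9.03 on shNrf3-NC and 7.59 on shCtrl-NC, and 7 of 9 had a difference. Of these 7, 6 were higher and 0 lower on shNrf3-NC than on shCtrl-NC, and 5 were lower on shNrf3-HFD than on shCtrl-HFD. Fibroblast markers averaged 10.93 on shNrf3-HFD, 12.65 on shCtrl-HFD, 12.47 on shNrf3-NC and 13.27 on shCtrl-NC, with 5 of 9 lower on shNrf3-NC than on shCtrl-NC and 8 of 9 lower on shNrf3-HFD than on shCtrl-HFD. Of 11 markers of B and plasma cells, whose ER is large, 8 lay below the negative control median on all 4 arrays, among them Mzb1 and Tnfrsf17. The other 3 differed between constructs on chow by 1.37 (Jchain), -1.24 (Sdc1) and -2.83 (Prdm1). The part of muscle, macrophage, adipocyte and fibroblast RNA in the differences above was not tested.

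The spiked hybridization controls also differed between arrays. Their 4 probe sets were 0.32 to 0.45 higher on shNrf3-HFD than on shCtrl-HFD and differed by -0.52 to -0.31 between shNrf3-NC and shCtrl-NC, the opposite sign to most genes of both arms on chow. Their part in the differences was not tested.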

How the data were processed

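The authors deposited 1 table of log2 intensities for 4 arrays, made with Affymetrix Expression Console and RMA per the submitters' processing notes; the sources used here give no versions, library files or genome build. RMA corrects background, normalizes between arrays and summarises probes per probe set. The table holds 28846 probe sets, of which 6640 are controls and 5222 of those negative controls. A gene symbol was given to 19572 of 22206 transcript probe sets by the platform annotation, and for 55 genes with several probe sets the brightest on average was used. All 28 genes have 1 probe set each.

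A reading below its array's negative control median was set to that median, and where both readings were below it no difference was given. The level filter was the median of row means (5.73). Arrays were compared by subtraction and, for all genes together, by limma 3.58.1 in R 4.3.3 (additive construct and diet, Benjamini-Hochberg adjustment). Alternatives were cyclic loess, centring on the median, mean of probe sets, mean over genes, other filters and a trended prior, and differences counted from the all-gene median, which was chosen after seeing the data. Named genes were the sensors, Hspa5, Hsp90b1, Hspa1a, Hspa1b, the 3 genes with the largest difference each way per arm and comparison, and the leading genes of each context list. Pdia3, Pdia6, Canx, Dnajb9, Dnajc3, Edem1, Hspa4, Hspd1 and Hsp90aa1 were named to account for all genes. The genes, lists and tests were chosen with earlier results of these data known. The number of arrays limits the precision.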

Additional observations from a re-analysis of the deposited data

Results flagged for a closer look

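For 6 of the 28 genes the construct difference (shNrf3 minus shCtrl, log2) was negative on the high-fat diet and positive on chow, each past 1.5-fold. Among all genes 5.01% had this pattern. After cyclic loess and after centring Hspa1b was short of 1.5-fold on the high-fat diet (-0.53 and -0.49) and Hspb8 on chow (0.55 and 0.53). The other 4 kept the pattern, which 3.02% of all genes had after loess and 2.0% after centring. With 1 array per group the difference between the diets was not tested. Hsph1 was at -0.80 on the high-fat diet and 2.15 on chow, a difference of -2.95 between the diets. Hspa1b was at -0.70 on the high-fat diet and 2.14 on chow, a difference of -2.84, with the near-identical Hspa1a at -0.51 on the high-fat diet and 0.89 on chow. Xbp1, the only ER gene of the 6, was at -0.83 on the high-fat diet and 1.27 on chow, a difference of -2.10. Hspa4l was at -0.83 on the high-fat diet and 1.17 on chow, a difference of -2.002, and Hspb8 at -1.13 on the high-fat diet and 0.74 on chow, a difference of -1.87. Dnajb1 was at -0.96 on the high-fat diet and 0.87 on chow, a difference of -1.83.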

How the results depend on the processing

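No paired analysis was possible because each group has 1 array, and leaving out an array leaves no residual degree of freedom, so that was not run. The mean of probe sets could move no arm's median or count, since each measured gene of the arms has 1 probe set. With the mean of probe sets, the 75th percentile filter, no filter or a trended prior, limma called 0 genes for construct and 0 for diet. Other values are given after cyclic loess, after centring and counted from the all-gene median, in that order. The ER median was 0.58, 0.63 and 0.70 for construct on chow, 0.12, 0.17 and 0.10 for construct on the high-fat diet, -0.144, -0.0875 and -0.0282 for diet in shCtrl tumors and -0.30, -0.32 and -0.44 for the difference between diets of the construct difference. The heat shock median was 0.69, 0.67 and 0.74 for construct on chow, -0.36, -0.28 and -0.35 on the high-fat diet, 0.0777, 0.0898 and 0.149 for diet in shCtrl tumors and -1.19, -1.06 and -1.18 for the difference between diets. For diet in shCtrl tumors 2, 2 and 2 ER genes were higher and 3, 2 and 2 lower, and 1 heat shock gene was higher after centring and from the all-gene median. For diet in shNrf3 tumors centring gave -0.40 (ER) and -1.18 (heat shock), and the mean over genes gave -0.69 and -1.05; the mean was -0.99 for the ER difference between diets. Over all genes limma called 1 gene for construct after loess, and after centring 27 for construct and 11 for diet; the cause was not tested.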

Other observations

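Between diets, the context genes gave these values. In shCtrl tumors the high-fat diet gave 10 of 34 other ER folding and degradation genes a reading at least 1.5-fold above chow and 1 below (29.4% and 2.94%), led by Erp44 at 1.89, where 31.1% and 10.6% of all genes were. In shNrf3 tumors 0 were above and 5 below (14.7%), where 8.78% and 14.3% of all genes were, the lowest being Dnajb11, an ER HSP40 that works with BiP, at -0.98. Of the 32 other genes, mostly cytosolic chaperones, 13 were higher and 2 lower on the high-fat diet in shCtrl tumors (40.6% and 6.25%). In shNrf3 tumors 2 were higher and 6 lower (6.25% and 18.8%), beside the same shares of all genes. The median of this list in shNrf3 tumors was 0.05. Cryab had its highest difference in shCtrl tumors, 1.46, and its lowest in shNrf3 tumors, -2.17. Of 10 other mitochondrial chaperone and protease genes, 6 were higher and 0 lower on the high-fat diet in shCtrl tumors, where 31.1% and 10.6% of all genes were, and 0 were higher and 1 lower in shNrf3 tumors, where 8.78% and 14.3% were.

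Markers of endothelium averaged 6.83 on shNrf3-HFD, 7.57 on shCtrl-HFD, 6.93 on shNrf3-NC and 7.9998 on shCtrl-NC (log2). Of 8 with a difference, 7 were 1.5-fold or more lower on shNrf3-NC than on shCtrl-NC, where 13.5% of all genes were. T cell markers averaged 5.12 on shNrf3-HFD, 5.42 on shCtrl-HFD, 6.68 on shNrf3-NC and 5.79 on shCtrl-NC. On these arrays, in that order, 6, 4, 1 and 2 of the 8 lay below the negative control median. Of the T cell markers, 4 of 8 were higher on shNrf3-NC than on shCtrl-NC, where 26.7% of all genes were. Keratinocyte markers averaged 5.02 on shNrf3-HFD, 6.19 on shCtrl-HFD, 4.58 on shNrf3-NC and 5.58 on shCtrl-NC. Below the negative control median lay 7, 4, 8 and 3 of these 9, in the same order of arrays. Of 6 with a difference, 5 were lower on shNrf3-HFD than on shCtrl-HFD, where 20.6% of all genes were. For Krt1, Krt5, Krt10 and Dsc3 the shNrf3-HFD reading was below that median, so their differences are bounds.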
